A study of Homo sapiens with 6 samples.

Results

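Binding of FOSL2 and JUNB around 8 genes of the NF-κB pathway was examined in HaCaT cells, an immortalised line of human skin keratinocytes. FOSL2 is a FOS-family and JUNB a JUN-family subunit of AP-1, a dimeric transcription factor. The 8 genes are the NF-κB subunit genes NFKB1, NFKB2 and RELB, the IκB genes NFKBIA and NFKBIZ, the ubiquitin enzyme genes TNFAIP3 and BIRC3, and the RNase gene ZC3H12A. A binding region was assigned to a gene if it reached into the gene body or came within 50 kb of either end. By this rule 67 of 75703 FOSL2 regions and 39 of 40061 JUNB regions belonged to the 8 genes, out of 19974 protein-coding genes. The series holds 3 FOSL2 and 3 JUNB libraries of HaCaT cells grown in DMEM with fetal bovine serum, made by ChIPmentation, in which a transposase tags immunoprecipitated chromatin, with an antibody from a different supplier for each factor. The 3 libraries of a factor are represented by 1 combined list of regions. The values therefore carry no replicate error, depth per library is unknown, and no p-value is given. HaCaT is 1 cell line, and no treatment is recorded in the labels.

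NF-κB is a family of dimers that IκB proteins hold inactive in the cytoplasm. Signals from TNF, IL-1 and Toll-like receptors activate a kinase that marks IκB for destruction, and the freed dimers enter the nucleus and bind κB sites. Many of the genes they switch on, including NFKBIA and TNFAIP3, encode proteins that end the response. AP-1 and NF-κB respond to many of the same inflammatory signals in the epidermis.

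The sequences below show where κB sites lie in the 300 bases around listed transcription starts, 250 before and 50 after the start, for 6 of the genes. They are shown because these windows held κB matches and differed in whether they were bound: both factors in TNFAIP3, BIRC3 and NFKB2, JUNB without FOSL2 in NFKBIZ, and neither in NFKBIA and NFKB1. Sequences are from RefSeq (GRCh38.p14), 5′ to 3′ on the gene's strand, with capitals marking each match of the κB motif (GGG, any 3 bases, then TTCC) on either strand.
TNFAIP3, chr6:137867009-137867308 (plus strand): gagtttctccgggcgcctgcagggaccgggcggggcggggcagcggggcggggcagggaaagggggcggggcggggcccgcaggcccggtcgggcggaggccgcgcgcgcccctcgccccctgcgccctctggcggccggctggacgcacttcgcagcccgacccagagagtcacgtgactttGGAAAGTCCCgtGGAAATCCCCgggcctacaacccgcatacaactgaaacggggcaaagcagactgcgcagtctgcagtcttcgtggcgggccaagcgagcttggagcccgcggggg
BIRC3, chr11:102317234-102317533 (plus strand): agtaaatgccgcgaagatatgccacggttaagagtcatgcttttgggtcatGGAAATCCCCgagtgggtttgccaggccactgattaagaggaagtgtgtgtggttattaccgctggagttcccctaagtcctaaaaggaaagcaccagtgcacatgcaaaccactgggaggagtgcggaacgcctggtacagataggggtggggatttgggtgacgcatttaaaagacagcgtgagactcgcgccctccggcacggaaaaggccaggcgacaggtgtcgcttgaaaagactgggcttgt
NFKB2, chr10:102395455-102395754 (plus strand): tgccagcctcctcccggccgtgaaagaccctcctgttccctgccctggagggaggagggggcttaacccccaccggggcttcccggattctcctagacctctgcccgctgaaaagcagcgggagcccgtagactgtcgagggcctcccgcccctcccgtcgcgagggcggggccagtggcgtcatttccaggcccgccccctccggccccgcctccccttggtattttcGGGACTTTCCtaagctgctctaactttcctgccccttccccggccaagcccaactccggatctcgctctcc
NFKBIZ, chr3:101827740-101828039 (plus strand): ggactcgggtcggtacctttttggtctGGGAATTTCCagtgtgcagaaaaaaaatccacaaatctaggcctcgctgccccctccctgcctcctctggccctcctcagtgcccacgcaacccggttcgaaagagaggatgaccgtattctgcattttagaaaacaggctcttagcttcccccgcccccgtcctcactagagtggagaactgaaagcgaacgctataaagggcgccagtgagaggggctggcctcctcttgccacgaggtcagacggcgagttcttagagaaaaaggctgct
NFKBIA, chr14:35404700-35404999 (minus strand): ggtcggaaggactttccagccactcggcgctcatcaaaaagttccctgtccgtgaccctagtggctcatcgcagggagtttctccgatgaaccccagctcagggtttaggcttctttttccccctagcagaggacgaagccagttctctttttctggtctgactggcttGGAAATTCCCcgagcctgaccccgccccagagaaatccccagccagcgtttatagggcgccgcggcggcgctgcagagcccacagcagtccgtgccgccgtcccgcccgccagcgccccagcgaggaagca
NFKB1, chr4:102501109-102501408 (plus strand): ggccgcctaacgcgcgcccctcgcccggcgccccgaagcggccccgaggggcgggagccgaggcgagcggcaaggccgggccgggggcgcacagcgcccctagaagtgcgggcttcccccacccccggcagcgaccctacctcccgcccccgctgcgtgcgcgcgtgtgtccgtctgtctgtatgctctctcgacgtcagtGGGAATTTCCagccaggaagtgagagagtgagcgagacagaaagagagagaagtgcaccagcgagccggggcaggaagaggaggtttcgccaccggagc
RefSeq start windows were found for 7 of the 8 genes, 11 windows in all. RELB was not matched.

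A κB match stood in 7 of these 11 windows, in 6 of the 7 genes, against 6.53% of 34961 windows of all genes. Among the 22132 windows of protein-coding genes the share was 6.98%. TNFAIP3 carried 2 of the matches 67 and 55 bp before its start, separated by a pair of bases. NFKB2 had 2 matches 106 and 78 bp before its start at 102394578, and the 1 shown above 21 bp before its start at 102395705. The match of NFKB1 lay 49 bp, that of NFKBIA 81 bp, that of BIRC3 199 bp and that of NFKBIZ 223 bp before the start. ZC3H12A had none. The AP-1 motif TGANTCA was in 0 of the 11 windows (7.68% of all windows) and the related TGACGTCA also in 0 of 11 (1.85%). In windows of protein-coding genes the 2 shares were 6.15% and 2.26%. These counts describe letters in the windows and not occupied sites. The 5 windows not shown (2 of NFKB2 and 1 each of NFKB1, NFKBIZ and ZC3H12A) were searched in the same way.

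At the starts themselves, FOSL2 regions reached 3 of the 11 windows and JUNB regions 5 of 11, with both factors on 3. Over all windows the shares were 16.4% for FOSL2, 17.2% for JUNB and 9.41% for both. For windows of protein-coding genes they were 19.3%, 21.1% and 11%. The windows with both were those of TNFAIP3, BIRC3 and NFKB2 (start at 102395705), and the windows with JUNB alone were both of NFKBIZ. In TNFAIP3 the FOSL2 and JUNB summits were at −268 and −267 bp relative to the start, 206 and 205 bp from the nearer κB match. In BIRC3 the summits were 58 bp (FOSL2) and 38 bp (JUNB) before the start, 136 and 156 bp from the κB match. NFKBIA, the textbook NF-κB target, had no region on its window: the closest FOSL2 and JUNB regions ended 403 and 392 bases short of it, inside the gene. NFKB1 was the farthest from binding, with its 2 windows 33808 and 33233 bp from the nearest FOSL2 region and 71045 and 71620 bp from the nearest JUNB region. Of the 7 windows with a κB match, 3 had both factors, 3 had neither and 1 had JUNB alone.

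All 8 genes had regions of both factors within 50 kb and at least 1 shared region, meaning that it overlapped a region of the other factor by 1 bp or more. This is also usual for other genes: 92.9% of protein-coding genes had a FOSL2 region at this distance, 83.9% a JUNB region, and 77.6% a FOSL2 region and 77.5% a JUNB region that was shared. FOSL2 regions numbered 11 at NFKBIZ, 9 each at NFKB2, TNFAIP3 and BIRC3, 8 at ZC3H12A, and 7 each at NFKB1, RELB and NFKBIA. JUNB regions numbered 7 at NFKBIZ, 6 at NFKB2 and TNFAIP3, 5 at NFKBIA, BIRC3 and ZC3H12A, 3 at RELB and 2 at NFKB1. The 31 shared pairs were spread unevenly, with 5 each at NFKBIA, NFKBIZ, TNFAIP3 and ZC3H12A, 4 at NFKB2 and BIRC3, 2 at NFKB1 and 1 at RELB.

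**Figure D1:**
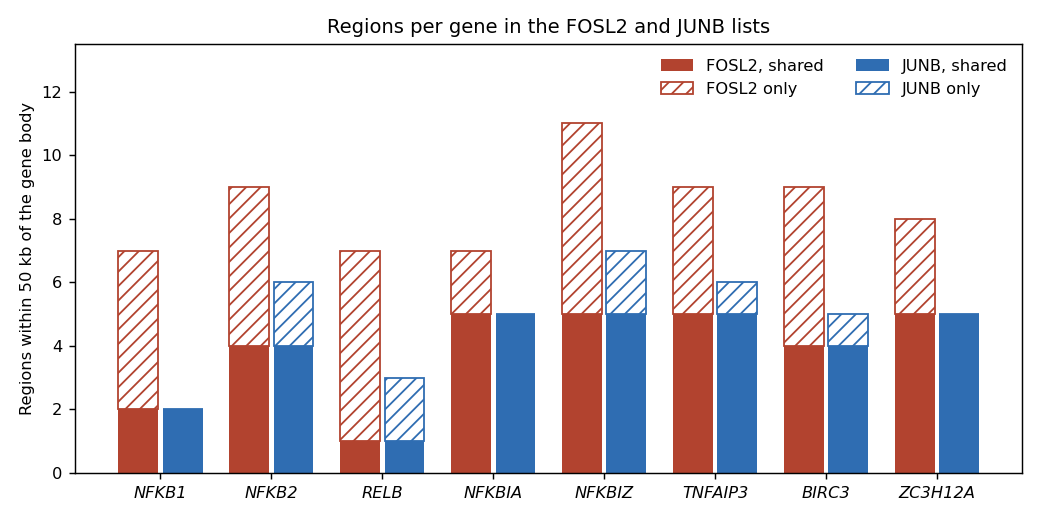
Number of regions within 50 kb of each gene body (y axis) for the FOSL2 list (left bar) and the JUNB list (right bar); solid parts are shared with the other list and hatched parts are not. NFKB1 and RELB have 7 FOSL2 regions each but 2 and 3 JUNB regions, while NFKBIA and ZC3H12A have no JUNB region without FOSL2.

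Strength is given as the authors' fold enrichment, a ratio of signal over background, and is read only within a list because its level is not comparable between the lists. The 67 FOSL2 regions had a median of 4.83 (lowest 2.23, highest 13.1), against 5.56 in the whole list. The 39 JUNB regions had a median of 4.15 (2.40 to 9.49), against 4.79 in the whole list. In the strongest 10% of their list stood 5 FOSL2 regions, 1 each at NFKB1, NFKB2, NFKBIA, TNFAIP3 and ZC3H12A, and 4 JUNB regions, 1 each at NFKB2, TNFAIP3, BIRC3 and ZC3H12A. At or below the 25th percentile of their list stood 21 of the 67 FOSL2 regions, 5 of them at RELB, and 11 of the 39 JUNB regions.

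**Figure D2:**
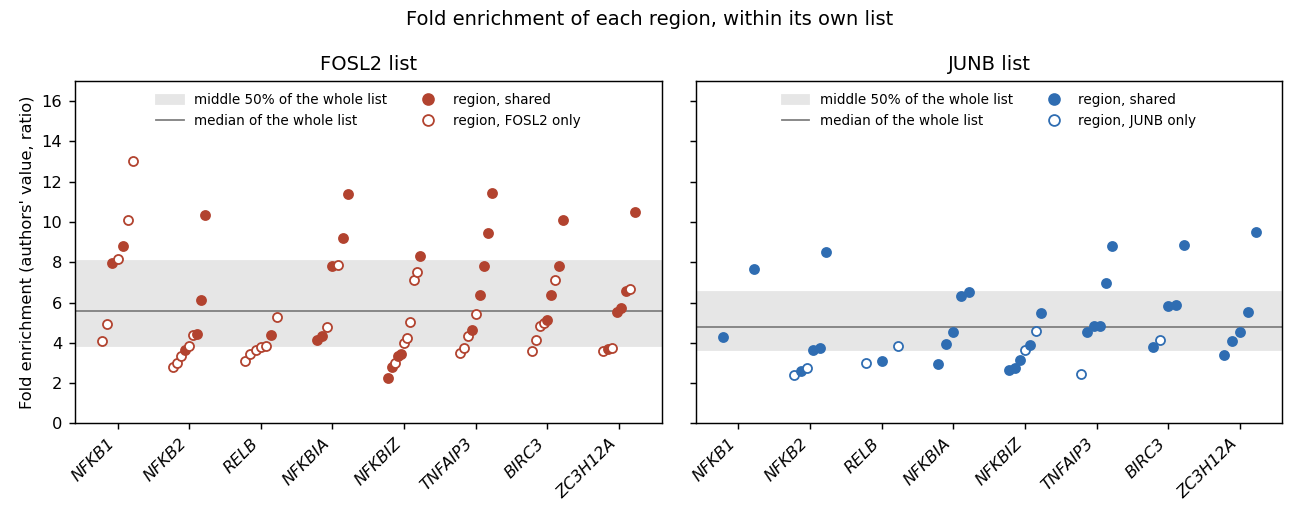
Fold enrichment (y axis, authors' ratio) of every region at each gene in the FOSL2 list (left panel) and the JUNB list (right panel); filled points are shared regions, the line is the median and the band the middle 50% of the whole list. All RELB regions lie below the list medians of 5.56 (FOSL2) and 4.79 (JUNB), and the highest FOSL2 point is the unshared 13.1 at NFKB1.

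NFKB1, NFKB2 and RELB encode DNA-binding subunits, the first pair as precursors that are cut to the mature form. NFKB1 (chromosome 4, 102501359 to 102617302) had 7 FOSL2 and 2 JUNB regions. Its FOSL2 fold enrichments were 10.1, 4.91 and 8.15 inside the gene, and 13.1, 4.07, 8.82 and 7.97 beyond its 3′ end. The JUNB values were 4.30 and 7.65, both beyond the 3′ end, and both regions overlapped the outermost pair of FOSL2 regions inside MANBA, the neighbouring β-mannosidase gene. No JUNB region lay inside NFKB1 or within 50 kb before its start. Of its 7 FOSL2 regions 5 had no JUNB partner, against 6 of 7 at RELB and 36 of the 67 at all 8 genes. Having no partner was also usual in the whole FOSL2 list, where 41.1% of regions had one. The strongest unshared FOSL2 region of NFKB1, chr4:102627525-102628498, lay 10732 bp past the 3′ end of the gene and 2736 bp from an end of MANBA.

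NFKB2 (chromosome 10, 102394110 to 102402529), whose product acts in the non-canonical pathway with RELB, had its strongest binding at the 3′ end. There chr10:102401468-102402593 (FOSL2, 10.4) and chr10:102401537-102402335 (JUNB, 8.50) had summits at the same base, 515 bp inside the gene's 3′ end. A weaker pair near the start at 102395705 had values of 6.15 (FOSL2) and 3.73 (JUNB), with summits 266 and 322 bp after that start. The other 7 FOSL2 regions had values from 2.81 to 4.44, and the other 4 JUNB regions from 2.40 to 3.65. The gene shares its window with GBF1, PSD, FBXL15, CUEDC2 and C10orf95, and 5 FOSL2 and 3 JUNB regions lay nearest to one of these.

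RELB (chromosome 19, 45001464 to 45038192) had the weakest maxima of the 8 genes in both lists. Its FOSL2 values ran from 3.12 to 5.27 over 7 regions, and the JUNB values were 3.84, 3.11 and 3.02. The only shared pair had values of 4.39 (FOSL2) and 3.11 (JUNB), lay inside the gene and had summits 2 bp apart, 5172 and 5174 bp from the lower-numbered end. Of the other JUNB regions, 1 was 637 bp from an end of CLPTM1 and 1 lay where ZNF296 and GEMIN7 overlap, 9 bp from the nearest gene end. RELB and NFKB1 had the fewest shared pairs. Of the 7 FOSL2 regions of each gene, 5 were above the FOSL2 list median of 5.56 at NFKB1 and 0 at RELB. With a stricter cut, −log10 q of at least 10, RELB kept no JUNB region and so no shared pair.

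**Figure D3:**
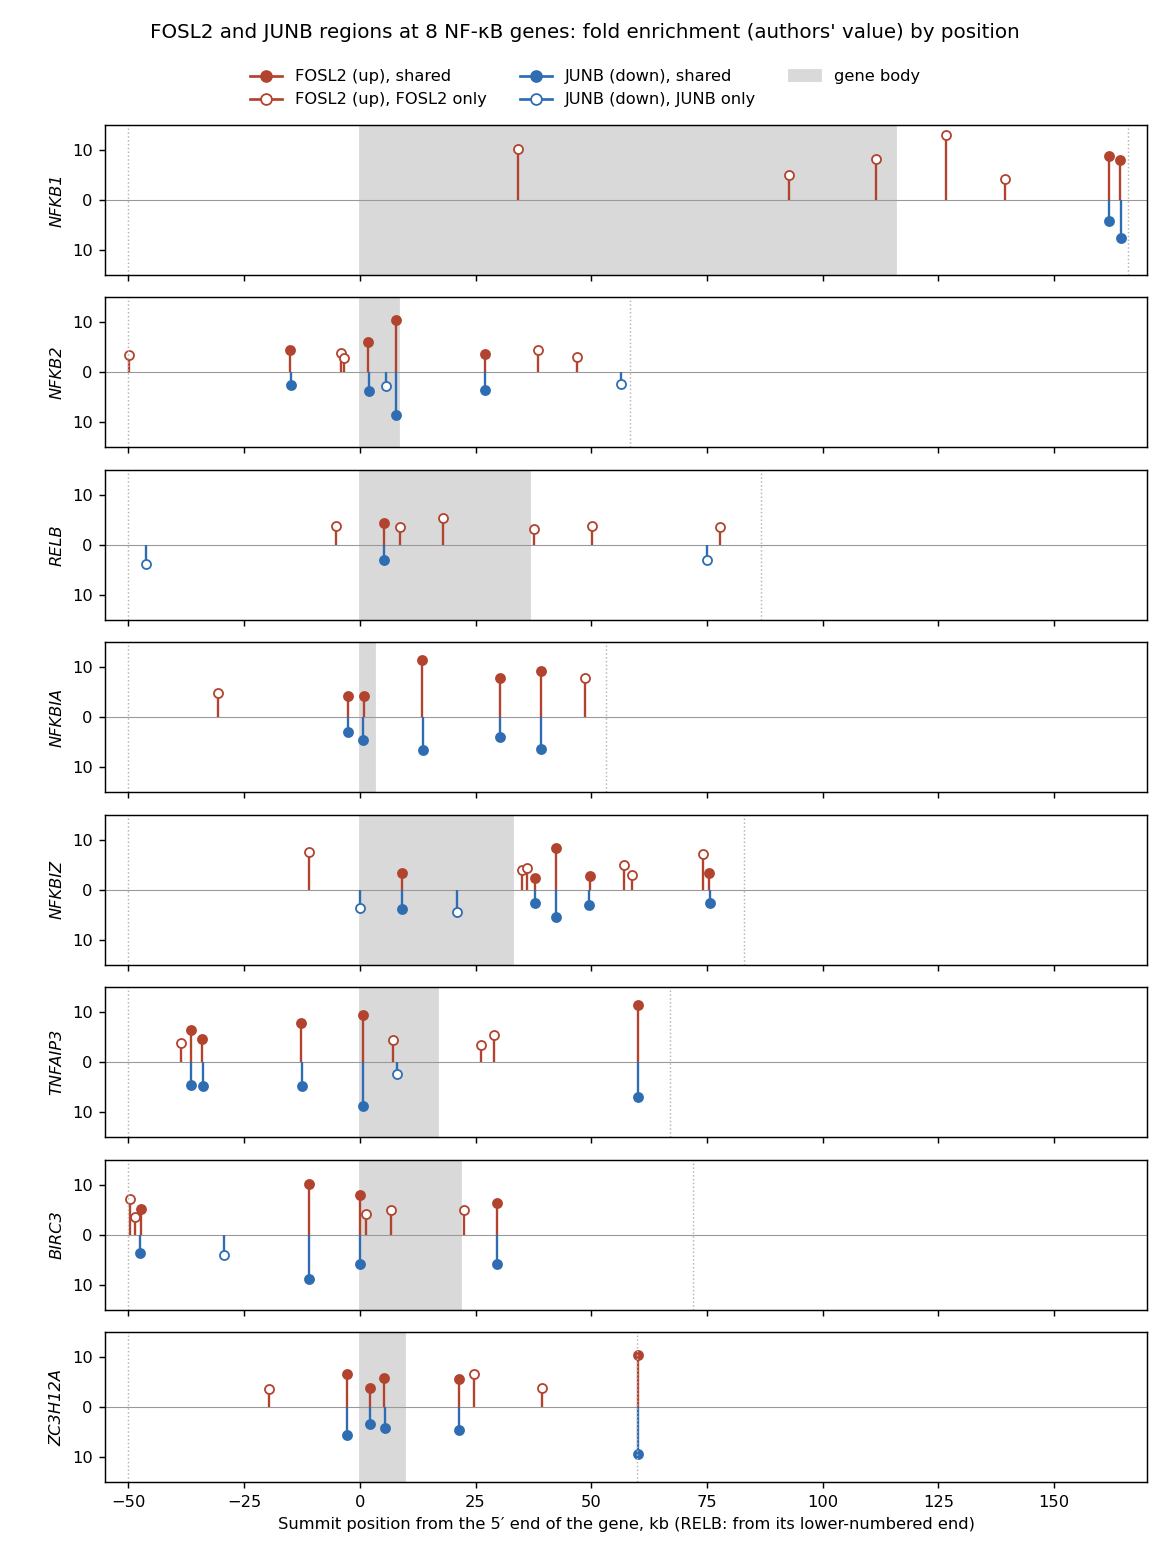
Position of each region's summit relative to the 5′ end of the gene (x axis, kb; for RELB from its lower-numbered end), with fold enrichment upward for FOSL2 and downward for JUNB (y axis, authors' ratio), grey for the gene body and dotted lines 50 kb beyond it. Filled points are shared; the regions of NFKB1 without JUNB and the shared pairs downstream of NFKBIA stand apart from their starts.

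NFKBIA encodes IκBα, which binds NF-κB dimers and carries them out of the nucleus. The gene (chromosome 14, 35401513 to 35404749, minus strand) is short, with no other protein-coding gene in its window. All 5 JUNB regions lay on FOSL2 regions. The strongest binding lay past the 3′ end: FOSL2 values were 11.4, 7.83 and 9.22 at summits 13535, 30263 and 39091 bp after the start. JUNB values at the same 3 places were 6.55, 3.93 and 6.30. A pair inside the gene had 4.17 (FOSL2) and 4.52 (JUNB), with summits 819 and 655 bp after the start, and a pair 2467 and 2456 bp before the start had 4.32 and 2.94. The downstream pairs thus had higher FOSL2 values than the regions next to the start, and for JUNB this held for 2 of the 3. The remaining FOSL2 regions, 7.85 and 4.79, were 48575 bp after and 30566 bp before the start and had no JUNB partner.

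NFKBIZ encodes IκBζ, a nuclear IκB that acts as a cofactor for part of the NF-κB response and is induced by IL-17 in keratinocytes. The gene (chromosome 3, 101827990 to 101861022) had the most regions of both factors, most of them weak. With a stricter cut, −log10 q of at least 10, NFKBIZ kept 6 FOSL2 and 2 JUNB regions and no longer had the most. BIRC3 then had 9 FOSL2 regions, and TNFAIP3 and ZC3H12A had 5 JUNB regions each. Without this cut, 9 of the 11 FOSL2 regions and 4 of the 7 JUNB regions of NFKBIZ lay past its 3′ end. The strongest was a shared pair of 8.32 (FOSL2) and 5.51 (JUNB), whose summits lay 9353 and 9260 bp past that end. An unshared FOSL2 region of 7.12 lay 41219 bp past it, and the other 4 unshared ones there ran from 2.99 to 5.02. The other 3 shared pairs there had FOSL2 values of 2.23, 2.79 and 3.36 and JUNB values of 2.66, 3.14 and 2.76. Inside the gene a pair had 3.42 (FOSL2) and 3.90 (JUNB), and a FOSL2 region of 7.53 lay 11009 bp before the start, inside NXPE3. Both starts of NFKBIZ were covered by JUNB regions without FOSL2, of 3.66 at the start at 101827990 and 4.57 at the start at 101849514. Their summits were at −56 and −430 bp relative to those starts, the first of them inside NXPE3.

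TNFAIP3 encodes a ubiquitin-editing enzyme that restrains signalling above the IκB kinase. It (chromosome 6, 137866349 to 137883312) was bound most strongly by JUNB at its own start, where chr6:137866020-137867447 (FOSL2, 9.44) and chr6:137866141-137867470 (JUNB, 8.78) had summits 1 bp apart. The FOSL2 maximum lay elsewhere, 43074 bp past the 3′ end, with 11.4, and its JUNB partner there had 6.99. Upstream, 3 shared pairs had FOSL2 values of 6.35, 4.65 and 7.81 and JUNB values of 4.55, 4.85 and 4.82, at 36475, 34048 and 12622 bp (FOSL2 summits) before the gene's first base. The 4 FOSL2 regions without a partner had values from 3.51 to 5.44, and the JUNB region without one had 2.44. Thus all the shared regions of TNFAIP3 had a higher value in the JUNB list than its unshared JUNB region. No other protein-coding gene lies in this window.

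BIRC3 encodes a ubiquitin ligase of the TNF receptor complexes that also blocks cell death. The gene (chromosome 11, 102317484 to 102339403) had its strongest pair 11 kb upstream: chr11:102305900-102307143 (FOSL2, 10.1) and chr11:102305938-102307116 (JUNB, 8.86), with summits 11024 and 11039 bp before the start and 15 bp apart. The pair on the start had 7.83 (FOSL2) and 5.82 (JUNB). A pair of 6.36 and 5.90 lay 23 and 3 bp from an end of BIRC2, the related ligase gene next to it. The far upstream regions, 3 of FOSL2 and 1 of JUNB between 47307 and 49696 bp before the start, lay nearer to YAP1. The 3 FOSL2 regions inside the gene or just past its 3′ end, of 4.13, 4.96 and 4.83, had no JUNB partner. A JUNB region of 4.15 without FOSL2 lay 29366 bp before the start.

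ZC3H12A encodes an RNase that destroys the mRNAs of inflammatory cytokines. At this gene (chromosome 1, 37474580 to 37484377) all 5 JUNB regions were shared, and no region touched the start window. A pair of 6.55 (FOSL2) and 5.52 (JUNB) lay 2698 and 2708 bp before the start, and pairs of 3.72 and 3.40 and of 5.74 and 4.11 lay inside the gene. Inside MEAF6 lay a pair of 5.54 and 4.52 and FOSL2 regions of 6.68 and 3.76 without JUNB. A FOSL2 region of 3.59 without JUNB lay 19555 bp before the start. The highest values, 10.5 (FOSL2) and 9.49 (JUNB), came from a pair at the far edge of the window. When only regions nearest to ZC3H12A were counted, the maxima were 6.55 and 5.52.

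Distal regions, with a summit more than 1000 bp from the ends of every protein-coding gene, made up 56 of the 67 FOSL2 regions (83.6%, 95% Wilson interval 72.9 to 90.6) and 28 of the 39 JUNB regions (71.8%, 56.2 to 83.5). Over the whole lists the shares were 93.2% and 87.2%. The whole lists are not limited to regions within 50 kb of a gene, so the 2 sets of shares are not like for like. The intervals cover counting error only, and the regions of a gene share a locus. Ends were the 5′ and 3′ ends of the gene span, so distal does not mean away from every start. The pair near an internal start of NFKB2 and the JUNB region at the internal start of NFKBIZ counted as distal. Regions close to a 3′ end did not. Of the distal regions, 39 of the 56 FOSL2 and 23 of the 28 JUNB regions had the NF-κB gene as their nearest protein-coding gene. For the others this was MANBA, GBF1, CUEDC2, CLPTM1, CLASRP, GEMIN7, PSMA6, NXPE3, YAP1 or MEAF6. The strongest region was distal in 6 of the 8 genes for FOSL2 and in 4 of 8 for JUNB. With JUNB, the exceptions were NFKB2, RELB, TNFAIP3 and ZC3H12A. For the strongest regions and for the nearest genes, no share over all genes is given here, and most regions of both lists are distal.

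Sharing was close to that of the whole lists: 31 of 67 FOSL2 regions (46.3%, 95% Wilson interval 34.9 to 58.1) against 41.1%, and 31 of 39 JUNB regions (79.5%, 64.5 to 89.2) against 78.5%. The median fold enrichment was 6.35 for shared FOSL2 regions and 4.19 for those without JUNB, and in the whole list 7.85 and 4.40. Shared JUNB regions had a median of 4.52, against 3.34 for the 8 without FOSL2, and in the whole list 5.31 against 3.45. Over the 31 pairs the FOSL2 and JUNB fold enrichments had a Spearman correlation of 0.862 and a Pearson correlation on the log2 scale of 0.839, against 0.725 and 0.716 over the 31150 FOSL2 regions of the list with a partner. The pairs share libraries and 8 loci, so this is a description.

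The 2 summits of a pair lay a median of 52 bp apart (0 to 164 bp), with 15 of 31 pairs (48.4%) within 50 bp. In the whole list the median was 31 bp and 67.0% were within 50 bp. Weak pairs were the looser ones. Of the 13 pairs with a FOSL2 value at or below the list median, 3 lay within 50 bp, with a median distance of 79 bp, and of the 18 above it 12 did, with a median of 22 bp. In the whole list the medians were 42 bp for weak and 28 bp for strong pairs, with 56.4% and 70.0% of them within 50 bp. This split by strength was chosen after the values were seen. NFKBIZ had no pair closer than 58 bp, while the strongest pairs of NFKB2, NFKBIA, TNFAIP3, BIRC3 and ZC3H12A were within 22 bp.

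**Figure D4:**
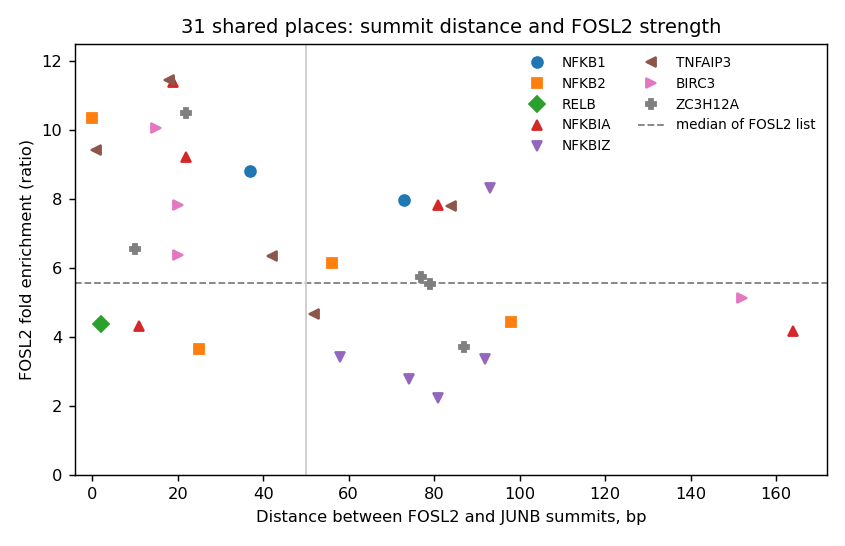
Distance between the FOSL2 and JUNB summits (x axis, bp) and FOSL2 fold enrichment (y axis, authors' ratio) for the 31 shared pairs, with symbols by gene, a dashed line at the list median of 5.56 and a vertical line at 50 bp. Of the 18 pairs above the list median 12 lie within 50 bp, and of the 13 at or below it 3 do. In the whole list the shares are 70.0% and 56.4%.

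Because the windows differ in length, regions were also counted per 100 kb of window. For FOSL2 the values were 8.30 at NFKB2, 8.27 at NFKBIZ, 7.70 at TNFAIP3, 7.38 at BIRC3, 7.29 at ZC3H12A, 6.78 at NFKBIA, 5.12 at RELB and 3.24 at NFKB1, against a median of 3.40 over all protein-coding genes. For JUNB they were 5.53 at NFKB2, 5.26 at NFKBIZ, 5.13 at TNFAIP3, 4.84 at NFKBIA, 4.55 at ZC3H12A, 4.10 at BIRC3, 2.19 at RELB and 0.926 at NFKB1, against a median of 1.90. In each list 6 of the 8 genes were above the third quartile of all genes, the limit that 25% of genes exceed. The exceptions in both were RELB and NFKB1, and NFKB1 was below the median in both.

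Another 46 genes of the pathway (kinases, adaptors, receptors, further IκB and Rel genes) were listed for comparison. Of these, 46 had a FOSL2 region and 45 a JUNB region within 50 kb, and IRAK1, a receptor-associated kinase, was the 1 without JUNB. Shared regions were found at 41 of the 46. Over all protein-coding genes, 92.9% had a FOSL2 region and 83.9% a JUNB region at this distance. A shared FOSL2 region was found at 77.6% of them and a shared JUNB region at 77.5%. The 46 genes are also not fully separate from those described above. The strongest regions listed for BIRC2 (10.1 for FOSL2 and 8.86 for JUNB) are the upstream pair of BIRC3. Densities above the third quartile were found at 18 of them for FOSL2 and 23 for JUNB, with medians of 4.06 and 3.57 regions per 100 kb. The highest FOSL2 values were at TNIP3 (13.3), a partner of the TNFAIP3 enzyme, the kinase gene MAP3K7 (12.9), the adaptor gene MYD88 (12.7), the kinase gene RIPK1 (11.9) and the ubiquitin ligase gene TRAF6 (11.8). The highest JUNB values were at RELA (11.7), which encodes the main activating NF-κB subunit, BCL10 (10.1), an adaptor, the ubiquitin ligase genes ITCH (9.79) and RNF31 (9.48), and NFKBIE (9.40), another IκB. The strongest region lay nearer to a gene other than the listed one in 23 of 46 cases for FOSL2 and 18 of 45 for JUNB. The summit of the strongest JUNB region was 768 bp from an end of the gene at RELA and 48483 bp at NFKB1. No such distance over all genes is given here.

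**Figure D5:**
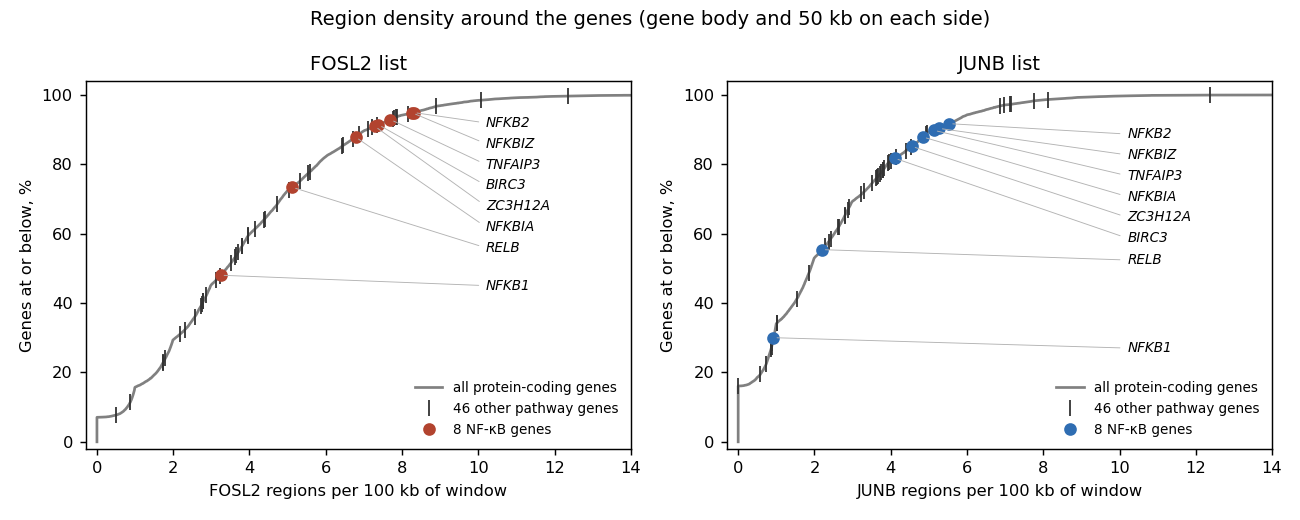
Share of genes (y axis, %) with at most the given number of regions per 100 kb of window (x axis) over all protein-coding genes (line), the 46 other pathway genes (ticks) and the 8 NF-κB genes (points), for FOSL2 (left) and JUNB (right). In both panels 6 of the 8 genes lie in the upper part of the curve, RELB lies lower and NFKB1 lowest.

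The 50 kb limit decided a few regions. Just inside it were the strongest pair of ZC3H12A (10.5 and 9.49), 49598 and 49879 bp from the gene body, and FOSL2 regions of NFKB2 (3.36, at 49633 bp) and BIRC3 (7.12, at 49225 bp, and 3.60, at 48396 bp). The stronger JUNB region of NFKB1 and its FOSL2 partner (7.97 for FOSL2 and 7.65 for JUNB) were both 48070 bp from the gene body. A pair of BIRC3 (5.13 and 3.78) was at 47076 and 47063 bp, and a JUNB region of NFKB2 (2.40) at 47816 bp. Just outside were FOSL2 regions of 7.12 near NFKB2 (50232 bp) and 2.84 near BIRC3 (51220 bp). Also outside were pairs near NFKBIZ (7.71 and 4.07, at 51865 and 52132 bp) and TNFAIP3 (5.94 and 5.05, at 52485 and 52617 bp).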

How the data were processed

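The authors deposited 1 list of narrow peaks per factor, named as a conservative overlap. Each list is taken here to stand for the 3 libraries of its factor. The submitters' processing notes name Bowtie2, SAMtools 1.8, Picard 1.89, MACS2, deepTools and hg38. For their order and options, the control and the combining rule, nothing is stated in the sources used here. The deposited lists hold a score, a fold enrichment (a linear ratio), −log10 p and q values and a summit offset for each region, all the authors' values. The fold enrichment was used to rank regions within a list, the −log10 q for 1 alternative and the score not at all. A single FOSL2 region on another chromosome than the autosomes or X was not used. Depth per library is unknown.

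Gene bodies and start windows came from RefSeq (GRCh38.p14, which shares chromosome coordinates with hg38), counted from 1. Strand came from the start windows, so RELB has none. Overlaps, distances and exact motif matches on both strands were computed in Python 3.11.15 with pandas 2.3.3, and Wilson intervals with scipy 1.17.1. The overlap and window code was tested on simulated data. The 8 genes, the 46 other pathway genes and the choices below were made with earlier results of these data known. Of the 46, the 5 highest per factor are named by rule; IRAK1 was named after its value was seen. A neighbouring gene is not reported here. No p-value was computed, since lists without replicate values allow none. Alternatives were other distances (10 kb, 100 kb, gene body only), −log10 q of at least 10, the 10000 strongest regions, a reciprocal overlap of 50%, summits within 100 bp, other limits for distal regions and nearest-gene assignment.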

Additional observations from a re-analysis of the deposited data

How the results depend on the processing

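The totals depended on the distance and cut used. The 67 FOSL2 and 39 JUNB regions became 31 and 19 within 10 kb, 102 and 64 within 100 kb, 17 and 13 for gene bodies only, and 7 and 7 with the 10000 strongest regions of each list. With −log10 q of at least 10, JUNB fell to 24 regions and 95.8% of them were shared, while FOSL2 kept 52. Distal shares became 91% (FOSL2) and 84.6% (JUNB) with a limit of 500 bp, 76.1% and 64.1% with 2500 bp, and 79.1% and 66.7% with the ends of all annotated genes. With regions nearest to the gene only, the highest FOSL2 value became 10.1 at NFKB1 and 6.55 at ZC3H12A, and the highest JUNB value 3.11 at RELB and 5.52 at ZC3H12A. NFKB1 then had no JUNB region. Other shared shares ran from 43.3 to 52.9% (FOSL2) and from 74.4 to 84.4% (JUNB), and pathway genes with a region stayed at 41 to 46 (FOSL2) and 40 to 46 (JUNB). At the other distances 8 genes had a FOSL2 region and 7 or 8 a JUNB region. With −log10 q of at least 10, 8 genes had a FOSL2 region and 7 a JUNB region, and RELB had no JUNB region. With the 10000 strongest regions 6 genes had a region of each factor. Of all protein-coding genes, 76.9% had a FOSL2 and 64.0% a JUNB region within 10 kb, and 96.4% and 90.9% within 100 kb. With −log10 q of at least 10 these shares were 90.2% and 75.3%. For gene bodies only and the 10000 strongest regions, no share over all genes is given here. No paired analysis was possible because each list pools its 3 libraries. The lists give no depth, so a region absent from a list may be below its cut.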

Other observations

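Several of the regions lay inside long noncoding RNA genes next to the NF-κB genes: 12 of the 67 FOSL2 summits (17.9%) and 8 of the 39 JUNB summits (20.5%). The shares were close to those of the whole lists, 16.2% of FOSL2 and 16% of JUNB summits. WAKMAR2, which overlaps the 5′ part of the TNFAIP3 gene body, held 5 FOSL2 and 4 JUNB summits, among them all 3 upstream shared pairs and the pair on the start. LITATS1 held 2 FOSL2 summits and 1 JUNB summit before the start of ZC3H12A. LOC105369460 held 3 FOSL2 summits and 1 JUNB summit between YAP1 and BIRC3. These regions therefore have more than 1 gene they could be counted with.

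Keratinocyte marker genes (KRT5, KRT14, TP63, ITGA6 and ITGB4) all had regions of both factors within 50 kb, 5 to 26 of FOSL2 and 4 to 17 of JUNB per gene. Markers of other cell types had them at 3 of 4 (melanocyte), 3 of 3 (fibroblast) and 3 of 3 genes (leukocyte) for FOSL2, and at 3 of 4, 2 of 3 and 3 of 3 for JUNB. The median density was 6.49 FOSL2 and 7.33 JUNB regions per 100 kb for keratinocyte markers, 2.38 and 1.07 for melanocyte, 2.37 and 0.592 for fibroblast, and 6.40 and 3.73 for leukocyte markers. Shared regions were found at 5 of 5 keratinocyte, 2 of 4 melanocyte, 2 of 3 fibroblast and 3 of 3 leukocyte markers. These lists hold 3 to 5 genes each, and no difference between them was tested.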
